A study of Mus musculus with 6 samples.

Results

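Bone morphogenetic protein (BMP) signaling was examined in EGFP+ cells sorted from pressure-overloaded mouse hearts, through 9 genes of the pathway: the ligands *Bmp2*, *Bmp4* and *Bmp6*, the antagonist *Grem1*, the receptors *Bmpr1a* and *Bmpr2*, and the target genes *Id1*, *Id2* and *Id3*. They were taken from the deposited expression table by gene symbol. The table holds 28987 genes, and each of the 9 had 1 entry. A total of 15109 genes reached a mean of 1 or more with the log2 undone and were tested, and 8 of the 9 BMP genes were among them; *Grem1* was not.

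The 6 libraries compare activated cardiac fibroblasts with and without *Hsp47* (gene symbol *Serpinh1*), which encodes a collagen chaperone of the endoplasmic reticulum. All mice carried a MerCreMer cDNA knocked into the *Postn* locus and the *R26eGFP* reporter, received tamoxifen (100 mg/kg i.p. and 40 mg/kg in chow per the labels), underwent transverse aortic constriction (TAC) at 8 to 10 weeks of age and were studied 4 weeks later. The 3 libraries labelled Hsp47-deleted came from mice that also carried loxP-targeted *Hsp47*, and the 3 control libraries from mice for which no loxP-targeted *Hsp47* is listed. Both groups therefore express the recombinase and have been given tamoxifen, and no library comes from an unoperated heart. Sorting on EGFP selects for cells in which the *Postn* locus has been active, and the purity of the sorted cells was not tested here. The sample titles place control replicates 3 and 4 in one run, called the first run here, and control replicate 2 together with all 3 Hsp47-deleted libraries in another, the second run. Values are listed in the order control replicates 3, 4 and 2, then Hsp47-deleted replicates 1, 2 and 3, so that the last control value is the one from the second run. The labels do not say whether a library is 1 mouse or a pool, so the p-values below measure the spread between libraries.

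BMPs are secreted ligands of the TGF-β superfamily. They bind a complex of type II receptors, such as BMPR2, and type I receptors, such as BMPR1A. The type I receptor then phosphorylates SMAD1, SMAD5 and SMAD9, which enter the nucleus with SMAD4 and switch on genes such as *Id1*, *Id2* and *Id3*. ID proteins are helix-loop-helix factors without a DNA-binding region, and they hold E proteins in complexes that cannot bind DNA. Gremlins, noggin and chordin bind BMPs outside the cell and keep them from their receptors. In the heart, BMP2 and BMP4 are known for their part in valve and septum formation, and BMP6 is best known as the endothelial ligand that controls hepcidin in the liver.

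Values are given as log2(value + 1), as deposited, and differences are Hsp47-deleted minus control on that scale, which understates the change of low genes. With the log2 undone, library sums ranged from 690499 to 855404 and genes above 0 from 18888 to 21107. These are not read counts, so the depth behind a value is unknown. *Serpinh1* itself was 6.28, 6.10 and 7.60 in the controls, and 6.87, 6.67 and 6.66 in the Hsp47-deleted libraries. Its level did not separate the groups (difference 0.07, SE 0.43, adjusted p = 0.947), so the groups are named here by their labels. For sorted EGFP+ cells of these genotypes, the paper reports efficient loss of the Hsp47 protein by Western blot. Protein was not measured in these libraries. The *Serpinh1* value covers the whole gene and does not isolate the exon flanked by loxP sites. Against the second-run control alone the difference was −0.87 (SE 0.31, adjusted p = 0.667). The fibroblast marker *Dcn* was between 12.31 and 13.08 in every library. The groups did not overlap for 5 of the 10 fibroblast markers, all higher in the Hsp47-deleted libraries (*Postn*, *Tcf21*, *Vim*, *Col1a2* and *Dcn*). Over all genes tested, 18.3% were without overlap in the higher and 1.5% in the lower direction. At an adjusted p under 0.05, 1 of the 10 passed, against 0.245% of all genes tested. This was *Postn*, whose locus carries the MerCreMer knock-in in both groups, with a difference of 4.41 (SE 0.28, adjusted p = 0.00337). The part of these differences in the BMP gene values was not tested. The median difference over all genes tested was 0.355, and it became −0.060 when each library was centred on its median; genes with an unadjusted p under 0.05 then split into 714 higher and 526 lower, instead of 2188 and 114.

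No BMP gene passed a Benjamini-Hochberg (BH) adjusted p of 0.05 in the comparison of the 3 Hsp47-deleted with the 3 control libraries, against 0.245% of all genes tested. At an unadjusted p under 0.05, 2 of the 8 tested genes were higher, *Bmp6* and *Id2*, and 0 were lower; 14.5% of all genes tested were higher and 0.755% lower by the same rule. The groups did not overlap for 1 gene in the higher direction, *Bmp6*, and for 0 in the lower direction, where the shares over all genes were 18.3% and 1.5%. The differences were positive for 5 genes and negative for 3, with a median of 0.85, which was 0.068 with the run as a covariate. Over all genes tested the medians were 0.355 and 0.288. Of all genes tested, 11250 were positive and 3859 negative.

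**Figure D1:**
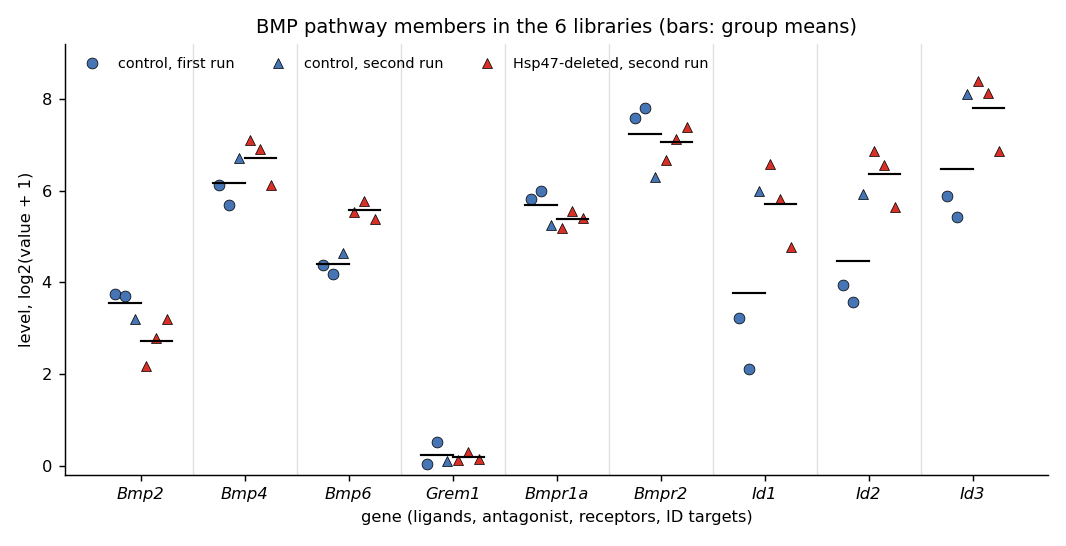
Level of each BMP gene, log2(value + 1), in the 6 libraries (circles, first run; triangles, second run; blue, control; red, labelled Hsp47-deleted; bars, group means). *Bmp6* is the gene whose groups do not overlap, and for *Id1*, *Id2* and *Id3* the second-run control lies among the Hsp47-deleted libraries.

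In mean level over the 6 libraries, *Bmpr2* (7.15) and *Id3* (7.14) were the highest, followed by *Bmp4* (6.44), *Bmpr1a* (5.53), *Id2* (5.41), *Bmp6* (4.98), *Id1* (4.75), *Bmp2* (3.13) and *Grem1* (0.21). The ranges over libraries overlapped for every pair of neighbors in this order except *Bmp2* and *Grem1*, where *Bmp2* was higher in 6 of 6 libraries. The files do not say whether the linear unit is per transcript length, so the order is that of the deposited values.

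Among the ligands, *Bmp6* (chr13:38345107-38500302, plus strand, mm10) was the only BMP gene with separate groups. It was 4.38, 4.18 and 4.63 in the controls, and 5.54, 5.78 and 5.39 in the Hsp47-deleted libraries. All 3 Hsp47-deleted libraries were above all 3 controls, the second-run control included, and within each group the libraries lay close together (SD 0.23 and 0.20). On the linear scale the means were 20.3 and 46.8. The difference was 1.17 (SE 0.28, p = 0.00355, adjusted p = 0.224), and the exact two-sided permutation test gave p = 0.1, the smallest it can give with 3 against 3. With the run as a covariate the difference was 0.94 (SE 0.35, adjusted p = 0.674). In that fit, 1 of the 8 genes was higher at an unadjusted p under 0.05, against 5.46% of all genes tested, and 0 were lower, against 1.27%. Without control replicate 2 the adjusted p of *Bmp6* was 0.0219, and run and label then coincide. *Bmp6* shares 224 exon bases with *Txndc5* on the opposite strand, and the library kit does not mark strand, so reads from these bases cannot be assigned to either gene. *Txndc5*, which encodes a disulfide isomerase of the endoplasmic reticulum, was 5.10, 4.91 and 6.33 in the controls and 6.60, 6.32 and 6.46 in the Hsp47-deleted libraries. The difference of *Txndc5* was 1.01, in the same direction as that of *Bmp6*. Its second-run control lay within the range of the Hsp47-deleted libraries, and that of *Bmp6* lay below it. The part of *Txndc5* reads in the *Bmp6* values was not tested.

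*Bmp4* (chr14:46383520-46390669, minus strand) was the most abundant of the 3 ligands in the table. It was 6.13, 5.68 and 6.71 in the controls, and 7.10, 6.91 and 6.11 in the Hsp47-deleted libraries. The groups overlapped, with Hsp47-deleted replicate 3 below a pair of controls, and the difference of 0.54 (SE 0.40) had an adjusted p of 0.518. Against the second-run control it was −0.003 (SE 0.46). *Bmp4* shares 89 exon bases with *Gm15217* on the opposite strand, which was 5.25, 0.77 and 0.97 in the controls and 1.52, 3.86 and 0.52 in the Hsp47-deleted libraries.

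*Bmp2* (chr2:133552159-133562885, plus strand) leaned the other way. It was 3.74, 3.70 and 3.20 in the controls, and 2.17, 2.78 and 3.21 in the Hsp47-deleted libraries. A pair of Hsp47-deleted libraries lay below every control, and Hsp47-deleted replicate 3 was level with control replicate 2. The difference was −0.82 (SE 0.37, p = 0.0574, adjusted p = 0.337; exact permutation p = 0.2), and −0.48 (SE 0.47) with the run as a covariate. Its unadjusted p was under 0.05 in 5 of the other settings tried, among them all 3 rescalings of the libraries, and its adjusted p was never below 0.105.

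*Grem1* (chr2:113746164-113758646, minus strand), which encodes gremlin 1, was close to 0 throughout. Its level was 0.03, 0.53 and 0.11 in the controls and 0.12, 0.31 and 0.15 in the Hsp47-deleted libraries, or at most 0.44 in the linear unit. The groups overlapped and the exact permutation test gave p = 1. *Nog*, which encodes noggin, was at most 0.32 in any library. Since depth is unknown, these values cannot be set against a detection limit.

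The receptors did not separate the groups in the values as deposited. *Bmpr1a* (chr14:34410734-34503341, minus strand) was 5.82, 5.99 and 5.24 in the controls, and 5.18, 5.55 and 5.41 in the Hsp47-deleted libraries (difference −0.30, SE 0.31, adjusted p = 0.649). The difference was −0.72 when libraries were centred on their medians, −0.64 with quantile normalization and −0.79 when rescaled. Only when rescaled did it pass an unadjusted p of 0.05, as did 7.86% of all genes tested. *Bmpr1a* shares 290 exon bases with *Gm17110* on the opposite strand, whose level was at most 1.09. *Bmpr2* (chr1:59763400-59879014, plus strand) was 7.58, 7.80 and 6.31 in the controls and 6.66, 7.14 and 7.39 in the Hsp47-deleted libraries. Here the second-run control was the lowest of all 6 libraries and the first-run controls were the highest. The pooled difference was −0.17 (SE 0.45, adjusted p = 0.872). With the run as a covariate the sign turned, to 0.76 (SE 0.38, adjusted p = 0.732). The run term of that fit, which is control replicate 2 minus the mean of control replicates 3 and 4, was −1.39 (SE 0.40, adjusted p = 0.0913).

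**Figure D2:**
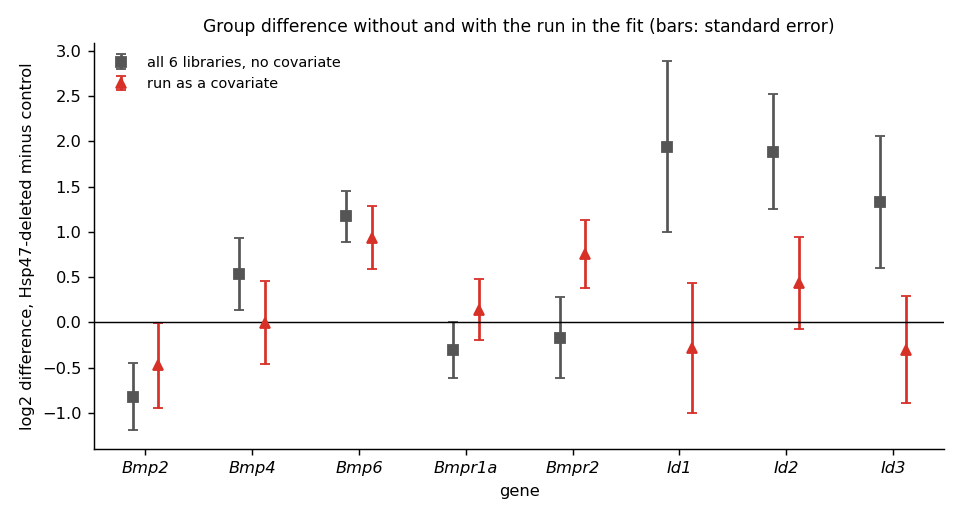
Difference between the groups (Hsp47-deleted minus control, log2 scale) for the 8 BMP genes tested, with all 6 libraries and no covariate (grey squares) and with the run as a covariate (red triangles); bars are standard errors. *Bmp6* stays near 1 in both, *Id1* and *Id3* go from 1.94 and 1.33 to −0.28 and −0.30, and *Bmpr2* goes from −0.17 to 0.76.

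The ID genes showed the largest pooled differences of the 9 genes and also the largest spread among controls. *Id2* and *Id3* are shown here with letters that SMAD proteins are known to bind, since they are the ID genes with an entry in the RefSeq promoter table used (GRCm38.p6), which covers 7 of the 9 BMP genes. Capitals mark GGCGCC, a GC-rich element known for SMAD1 and SMAD5, or CAGAC, the SMAD box, which reads GTCTG on the opposite strand. The *Id2* stretch (chr12:25096254-25096342, minus strand) lies before the RefSeq start, in an intron of 1 of the 3 *Id2* transcripts of GENCODE M21. The *Id3* stretches (chr4:136143643-136143672 and chr4:136143742-136143771, plus strand) lie before the RefSeq start, in what GENCODE annotates as UTR.
Id2: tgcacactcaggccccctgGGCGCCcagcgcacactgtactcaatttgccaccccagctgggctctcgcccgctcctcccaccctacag
Id3, distal: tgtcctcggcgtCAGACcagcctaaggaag
Id3, proximal: ggacccttggcgGTCTGttttgaataaggg

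In the 250 bases before the start, GGCGCC occurred in 4 of the 7 BMP genes (*Bmpr2*, *Grem1*, *Id2* and *Bmpr1a*), and in 9.59% of 32851 promoters. CAGAC on either strand occurred in 3 (*Grem1*, *Id3* and *Bmp6*), and in 42.2% of promoters. These matches describe letters only. The genes that hold them include *Grem1*, which was near 0, and *Id2* and *Id3*, which were well above it.

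*Id1* (chr2:152736251-152737410, plus strand) was 3.21 and 2.11 in the first-run controls, 6.0 in the second-run control, and 6.57, 5.81 and 4.77 in the Hsp47-deleted libraries. In the linear unit these were 8.27, 3.33 and 62.9 in the controls and 94.3, 55.0 and 26.3 in the Hsp47-deleted libraries. The low values were those of the first-run controls, and control replicate 2 was above all but 1 Hsp47-deleted library. The pooled difference was 1.94 (SE 0.94, p = 0.0744, adjusted p = 0.361), and the exact permutation test gave p = 0.3.

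*Id2* (chr12:25093799-25097140, minus strand) was 3.93, 3.56 and 5.92 in the controls, and 6.86, 6.56 and 5.65 in the Hsp47-deleted libraries. Control replicate 2 was above Hsp47-deleted replicate 3, so the groups overlapped. The pooled difference was 1.88 (SE 0.64, p = 0.0188, adjusted p = 0.286), and the exact permutation test gave p = 0.2. Leaving out control replicate 3 or 4, or Hsp47-deleted replicate 1 or 2, took its unadjusted p above 0.05, as did quantile normalization, rescaling and the run as a covariate.

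*Id3* (chr4:136143497-136145755, plus strand) was the most abundant of the ID genes in the table, at 5.88, 5.43 and 8.11 in the controls and 8.40, 8.14 and 6.88 in the Hsp47-deleted libraries. The second-run control was level with Hsp47-deleted replicate 2 and above replicate 3. The pooled difference was 1.33 (SE 0.73, adjusted p = 0.399; exact permutation p = 0.2).

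With the run as a covariate, where the difference is that of the 3 Hsp47-deleted libraries from the 1 control of the second run, the values were −0.28 (SE 0.72) for *Id1*, 0.44 (SE 0.51) for *Id2* and −0.30 (SE 0.59) for *Id3*, with adjusted p-values of 0.921, 0.818 and 0.896. The run term was 3.33 (SE 0.76) for *Id1*, 2.17 (SE 0.54) for *Id2* and 2.45 (SE 0.63) for *Id3*, with unadjusted p-values of 0.00299, 0.00454 and 0.00531 and adjusted p-values of 0.0598, 0.0694 and 0.0733. At an unadjusted p under 0.05 the run term was higher in the second run for these 3 of the 8 BMP genes, against 17.7% of all genes tested, and lower for 1, *Bmpr2*, against 8.81%. It sets 1 control library against 2 others and so cannot be told apart from whatever else is particular to control replicate 2.

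Leaving out control replicate 2 gave adjusted p-values of 0.0155 for *Id1*, 0.00871 for *Id2* and 0.0235 for *Id3*. With *Bmp6*, 4 of the 8 BMP genes were then higher at a BH-adjusted p under 0.05, against 16.4% of all genes tested. Without that library the groups did not overlap in the higher direction for 4 of the genes, against 41.4% of all genes, and in the lower direction for 3 (*Bmp2*, *Bmpr1a* and *Bmpr2*), against 10.5%. In that comparison run and label coincide for every library, and the 2 cannot be told apart.

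Hsp47-deleted replicate 3 was the lowest of its group for all 3 ID genes. Immediate early genes, which are induced within minutes by growth factors and by tissue dissociation, were also low in the first-run controls. The 10 genes of that list summed to 1160 and 977 in the first-run controls, 5701 in the second-run control, and 7840, 9291 and 3345 in the Hsp47-deleted libraries, in the linear unit. Within the second run the sum was thus lowest in Hsp47-deleted replicate 3, but *Ier3* and *Nr4a1* were lowest there in control replicate 2, and *Atf3* was highest in Hsp47-deleted replicate 3. Their highest member, *Egr1*, was 8.11, 8.08 and 10.88 in the controls and 11.45, 11.74 and 9.82 in the Hsp47-deleted libraries. Of the 10, 6 were higher at an unadjusted p under 0.05 in the pooled comparison, against 14.5% of all genes tested. The median difference of the 10 was 2.02 pooled and 0.14 with the run as a covariate, and their median run term was 2.53. Over all genes tested these medians were 0.355, 0.288 and 0.111. The part of the immediate early genes in the ID gene values was not tested.

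Endothelial cells also express ID genes and BMP ligands. The 10 endothelial markers summed to 156 and 87.2 in the first-run controls, 296 in the second-run control, and 280, 238 and 181 in the Hsp47-deleted libraries. *Tek*, the highest, was between 5.38 and 6.17. The median run term of the 10 was 1.77, against 0.111 for all genes tested. It was 0.21 for *Tek* and from 1.40 (*Tie1*) to 2.88 (*Egfl7*) for the others. In the linear unit *Tek* alone was 71.0 and 47.9 in the first-run controls. The 10 cardiomyocyte markers, led by *Tnnt2*, summed to 110 and 52.7 in the first-run controls and to between 188 and 319 in the second-run libraries. The median run term of the 9 tested was 2.18. The 9 leukocyte markers in the table summed to 39.6 and 82.3 in the first-run controls and to between 131 and 255 in the second run. The median run term of the 8 leukocyte markers tested was 1.25, with −1.43 for *Itgam* and −1.03 for *Cd68*. Their members did not move alike: the neutrophil gene *S100a8* was 1.29, 0.71 and 7.38 in the controls and 5.05, 6.23 and 6.53 in the Hsp47-deleted libraries, whereas *Cd68*, the highest in mean log2 level, was 4.72, 6.01 and 4.33 in the controls and between 5.73 and 5.98 in the Hsp47-deleted libraries. *Ptprc*, which encodes CD45, was listed at 0 in every library. The 8 mural cell markers, led by *Rgs5*, summed to between 129 and 294 without such a split, but *Rgs5* alone was 253 of the 294 in control replicate 3. The median run term of the 8 was 0.60. It was −0.13 for *Rgs5* and −0.05 for *Cspg4*, and from 0.14 (*Kcnj8*) to 2.13 (*Des*) for the others. The 6 mesothelial markers summed to at most 11.1, and of these only *Wt1* was tested. For scale, the 10 fibroblast markers summed to between 8782 and 15981. The part of these cells in the BMP gene values was not tested, and fewer cells of a type cannot be told apart from less RNA per cell.

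**Figure D3:**
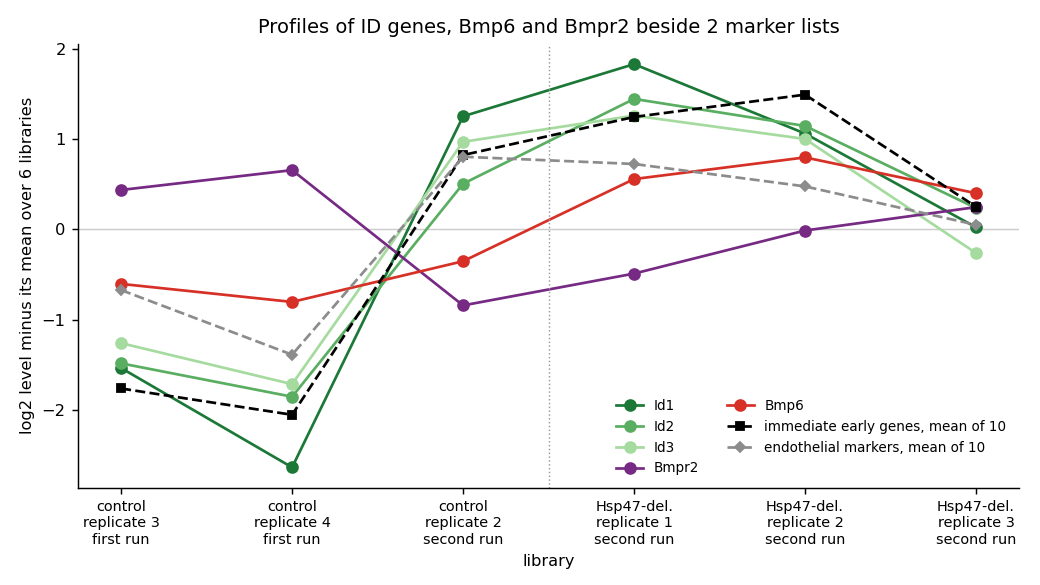
Level of *Id1*, *Id2*, *Id3*, *Bmp6* and *Bmpr2* in each library minus its mean over the 6 libraries (log2), beside the mean of 10 immediate early genes and of 10 endothelial markers (dashed); the dotted line parts control from Hsp47-deleted libraries and lines only join points of 1 gene. The ID genes step up between the controls of the first run and the control of the second run, where *Bmpr2* steps down, and *Bmp6* is highest in the 3 Hsp47-deleted libraries.

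The rest of the pathway was described with a list of 67 genes in the table, 48 of them tested. Of these 48, 10 were higher at an unadjusted p under 0.05 and 0 lower, against the 14.5% and 0.755% of all genes given above, and 0 passed the adjusted threshold. The median difference was 0.47, against 0.355 for all genes. With the 8 BMP genes above left out, 8 of 40 were higher. With the run as a covariate the median difference of the 48 was 0.34, against 0.288 for all genes tested. Their median run term was 0.28, against 0.111 for all genes tested. The 10 are 20.8% of the list, against 15.2% of all genes in either direction. When each library was centred on its median they became 4, or 8.33% against 8.21%, and without control replicate 2 they became 22, or 45.8% against 35.1%.

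Of the 8 ligands tested, *Gdf6*, a BMP of joint and tendon development, was the other one past an unadjusted p of 0.05, against 14.5% of all genes tested in the higher direction. It was low, at 1.85, 1.19 and 1.73 in the controls and 2.74, 2.70 and 2.16 in the Hsp47-deleted libraries (difference 0.95, SE 0.35, adjusted p = 0.305). Its groups did not overlap, as for 18.3% of all genes tested in the higher direction. With the run as a covariate its difference was 0.81 and did not pass an unadjusted p of 0.05. The cardiac and circulating ligands *Bmp10* and *Gdf2* were at most 0.21 and 0.05 in any library.

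Of the 10 antagonists tested, 3 were higher at an unadjusted p under 0.05, against 14.5% of all genes tested. The groups did not overlap for any of the 3, against 18.3% of all genes in the higher direction. *Fstl3*, a follistatin-like inhibitor of activin and related ligands, was 3.64, 3.03 and 3.72 in the controls and 4.38, 4.40 and 4.52 in the Hsp47-deleted libraries (difference 0.97, adjusted p = 0.282). *Nbl1*, of the same family of cystine-knot antagonists as the gremlins, differed by 1.16 (adjusted p = 0.297) and *Dand5*, another relative, by 0.82 (adjusted p = 0.313). With the run as a covariate the 3 differences were 0.71, 0.41 and 0.52, and none passed an unadjusted p of 0.05. The most abundant antagonist in the table, *Twsg1*, which modulates chordin, was between 6.04 and 6.69 in every library (difference −0.02).

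Of the 10 receptors and co-receptors tested, *Rgma*, a BMP co-receptor, differed by 1.22 (adjusted p = 0.288) without overlap. *Eng*, the endoglin co-receptor of endothelial cells and activated fibroblasts, differed by 1.36 (adjusted p = 0.291) with overlap. Both passed an unadjusted p of 0.05. Over all genes tested, 14.5% were higher by that rule and 18.3% were without overlap in the higher direction. *Eng* was 5.12, 5.06 and 6.51 in the controls and 7.18, 7.22 and 6.35 in the Hsp47-deleted libraries, so that the second-run control was above Hsp47-deleted replicate 3. The run terms of *Rgma* and *Eng* were 1.34 and 1.42, and their differences with the run as a covariate were 0.32 and 0.41. *Acvr1*, a type I receptor for BMP6, differed by 0.33 in the pooled comparison and by 0.91 (SE 0.35, adjusted p = 0.69) with the run as a covariate.

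Of the 7 SMAD genes and regulators tested, the inhibitory *Smad7*, which is induced by BMP and TGF-β and acts against both, was 3.04, 3.21 and 3.78 in the controls, and 4.58, 5.22 and 4.39 in the Hsp47-deleted libraries. The groups did not overlap. The difference was 1.39 (SE 0.36, adjusted p = 0.251), past an unadjusted p of 0.05, and 0.95 (SE 0.43, adjusted p = 0.732) with the run as a covariate. *Smad4*, the shared partner of the receptor SMADs, was also without overlap (difference 0.60, adjusted p = 0.34). Over all genes tested, 14.5% were higher at an unadjusted p under 0.05 and 18.3% were without overlap in that direction. *Smurf2*, a ubiquitin ligase that acts on SMADs and the most abundant of this class in the table, was between 5.60 and 6.67 (difference −0.02). *Smad1* and *Smad5*, the BMP receptor SMADs, differed by −0.38 and −0.32 in the pooled comparison and by 0.34 and 0.42 with the run as a covariate, and none of these 4 values passed an unadjusted p of 0.05.

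Among 8 BMP-induced targets tested, which include *Id1*, *Id2* and *Id3*, all 8 differences were positive in the pooled comparison (median 0.92). Their median was −0.22 with the run as a covariate. Of all 15109 genes tested, 11250 were positive, and the medians were 0.355 pooled and 0.288 with the run as a covariate. Of the 8, only *Id2* was past an unadjusted p of 0.05, against 14.5% of all genes tested in the higher direction. The median run term of the 8 was 1.60, against 0.111 for all genes tested. *Msx1*, a homeobox target of BMPs, had a run term of 1.79, and *Runx2*, another target, one of −0.87. *Id4*, the remaining ID gene, differed by 0.08 (SE 0.32). The 3 E proteins, the partners that ID proteins hold, had 0 past an unadjusted p of 0.05. *Tcf4*, the highest of them, was between 6.97 and 8.30 (difference 0.76, adjusted p = 0.344), and *Tcf12* between 5.31 and 5.77. Of the 2 tolloid proteases tested, *Bmp1*, a procollagen C-proteinase that also cleaves chordin, differed by 1.15 without overlap (adjusted p = 0.292), and *Tll1* by −0.33. With the run as a covariate the difference of *Bmp1* was 0.33. The share of all genes tested without overlap in the higher direction was 18.3%.

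**Figure D4:**
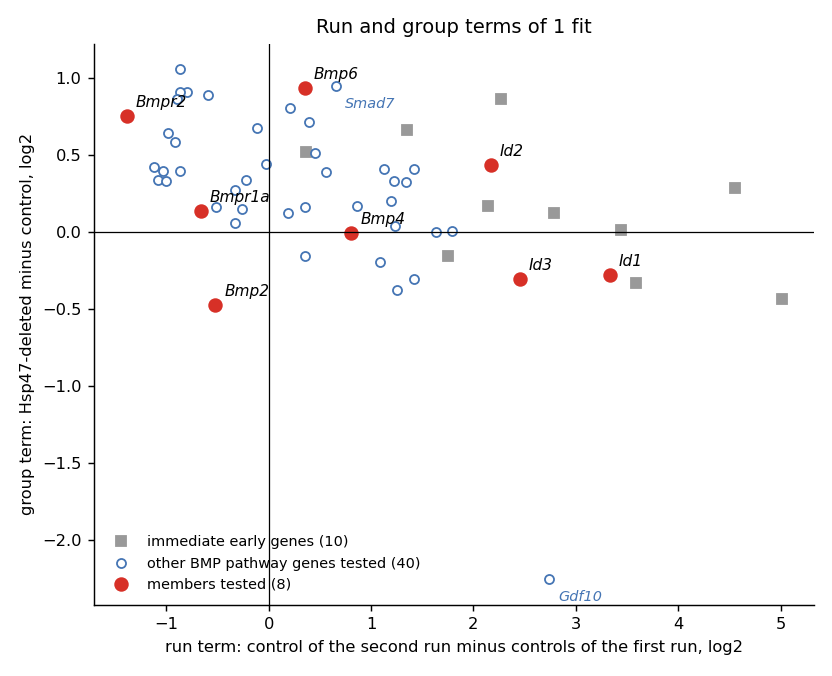
Run term (control of the second run minus controls of the first run) against group term (Hsp47-deleted minus control) of the fit with the run as a covariate, both on the log2 scale, for the 8 BMP genes tested (red), 40 other pathway genes (open blue circles) and 10 immediate early genes (grey squares). *Id1*, *Id2* and *Id3* lie at run terms from 2.17 to 3.33, and *Bmp6* has a run term of 0.35 and a group term of 0.94.

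Genes with the most similar profile were found by the root mean square difference over the 6 libraries, after each gene's mean was subtracted. For *Bmpr2* they were *Kpna6*, *F2r* and *Pappa* (0.058, 0.077 and 0.078 on the log2 scale), out of 12673 genes compared. Like *Bmpr2*, *Kpna6* was lowest in control replicate 2, at 4.22, and between 4.66 and 5.75 in the other libraries. For *Id1* they were *Slc9a3r2*, *Clec3b* and *Ndufv3* (0.176, 0.182 and 0.186), for *Bmp4* they were *Cnp*, *Abcg2* and *Ncoa7* (0.052, 0.064 and 0.07), and for *Grem1*, whose own values are near 0, they were *Uba3*, *Fkbp14* and the unnamed gene ENSMUSG00000090536 (0.033, 0.058 and 0.06). The closest profile to *Id1* was thus farther from it than the closest profiles were from *Bmp4* and *Bmpr2*, whose levels spread less over the libraries.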

How the data were processed

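RNA of flow-sorted EGFP+ cells had been amplified (Ovation RNA-Seq System v2) and made into Nextera XT libraries. The authors deposited 1 table of log2 values, log2(value + 1) for each gene and library, made with AltAnalyze; kallisto and mm10 are named in the submitters' processing notes, and the linear unit is not named. The table also holds the authors' group means, folds and p-values, which were not used. The labels and the paper give different tamoxifen doses; those of the labels are printed.

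Genes whose linear values averaged 1 or more were tested between the groups with limma (version 3.58.1, R 4.3.3; eBayes with a mean-variance trend, no covariate, BH adjustment over all genes tested), tested on simulated data, and single genes with an exact permutation test. The run term was read after the data were seen. The BMP genes, gene lists and alternatives were chosen with earlier results of these data known. Text names were set by rule: the 9 BMP genes, *Serpinh1*, per pathway class the 2 highest genes and up to 3 with the smallest p under 0.05, per marker list the highest gene and any at 0 everywhere, and 3 similar profiles for each of *Bmp4*, *Grem1*, *Bmpr2* and *Id1*. Other names (such as *Nog*, *Txndc5*, *Postn*, *S100a8*, *Bmp10*, *Gdf2*, *Acvr1*, *Smad1* and *Msx1*) were added after values were seen. Positions are from GENCODE M21; minimap2 2.31-r1302 found no near-identical transcript for the 9 genes (95% identity over 80% of the length). Alternatives were other scalings, pseudocounts (0.1 and 5), filters (none and a mean of at least 5), limma settings (statmod 1.5.0), the run as a covariate, the second run alone, a replicate block and leaving out each library.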

Additional observations from a re-analysis of the deposited data

How the results depend on the processing

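Over 18 alternatives, *Bmp2*, *Bmp6* and *Id2* kept the sign of their difference. *Grem1*, with 8 alternatives, ranged from −0.13 to 0.12; with no filter on low values its adjusted p was 0.938. *Bmp4* became −0.003, *Bmpr1a* 0.14, *Bmpr2* 0.76, *Id1* −0.28 and *Id3* −0.30, both with the run as a covariate and in the second run alone; those fits leave 1 control in the contrast. *Bmpr2* was also 0.32 with the replicate block and from −0.63 to 0.12 when single libraries were left out. When centred, quantile normalized and rescaled, *Bmpr2* was −0.58, −0.69 and −0.66, and *Bmpr1a* was −0.72, −0.64 and −0.79. Control and Hsp47-deleted libraries share only the numbers 2 and 3, and deviations correlated at 0.156 and 0.228 for same-numbered pairs and at up to 0.382 for others, so the numbers were not taken as pairs; with the replicate block 0 genes in all passed the adjusted threshold.

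Pathway genes with an unadjusted p under 0.05 (10) became 4 when centred, 3 with quantile normalization, 4 when rescaled, 4 with the run as a covariate, 6 with the replicate block, and from 3 to 22 when single libraries were left out. In the first 5 of these settings they were 8.33%, 6.25%, 8.33%, 8.33% and 12.5% of the list, against 8.21%, 8.37%, 7.86%, 6.73% and 10.2% of all genes. BMP genes with an unadjusted p under 0.05 (2) became 3 when centred and 3 when rescaled, against the 8.21% and 7.86% of all genes. They were from 1 to 5 without single libraries, against 6.04% to 35.1% of all genes, the 5 and the 35.1% without control replicate 2. Those past the adjusted threshold (0) ranged from 0 to 4. The 4 were higher without control replicate 2, against 16.4% of all genes tested. BMP genes whose groups did not overlap (1) became 2 when centred, 3 with quantile normalization, 3 when rescaled, and from 1 to 7 without single libraries (7 without control replicate 2, 5 without Hsp47-deleted replicate 3). Over all genes, 18.3% were without overlap in the higher and 1.5% in the lower direction, and 41.4% and 10.5% without control replicate 2. For the other settings that share was not taken, so their counts cannot be set against all genes. The pathway median minus that of all genes (0.11) ranged from −0.060, without Hsp47-deleted replicate 3, to 0.15. Over all genes, unadjusted calls split into 690 higher and 575 lower with quantile normalization and 606 and 582 when rescaled; calls at the adjusted threshold (37) ranged from 0 to 2768. The cause of these changes was not tested. The second run alone was given as values, without a test of its own. Depth is unknown, which limits the reading of *Grem1* and other genes near 0.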

Other observations

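A pair of BMP pathway genes had 1 library far from the rest, and they were chosen after their values were seen. *Gdf10*, which encodes a divergent BMP-family ligand also called BMP3B, was 3.32 in control replicate 2 and between 0.31 and 1.40 in the other 5 libraries. Its difference was −0.43 (SE 0.74) in the pooled comparison and −2.25 (SE 0.46, adjusted p = 0.2) with the run as a covariate, where its run term was 2.74 (adjusted p = 0.0346). *Fst*, which encodes follistatin, was 5.32 in Hsp47-deleted replicate 3 and between 2.18 and 3.49 in the other libraries (difference 0.43, SE 0.71). *Runx2*, a transcription factor of bone formation that BMPs induce, was 4.17, 4.82 and 3.63 in the controls, and 4.27, 4.65 and 5.13 in the Hsp47-deleted libraries (difference 0.48, adjusted p = 0.564), an order of controls opposite to that of the ID genes.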
